A study of Mus musculus with 7 samples.

Results

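Hand2 Foxf1 mesenchyme at E9.5 is the name used here for cells that carried UMIs of both transcription factor genes in the pharyngeal apparatus and heart. A UMI (unique molecular identifier) stands for 1 captured RNA molecule. The cells were chosen by measured values: at least 1000 genes detected, at most 10% of UMIs from mitochondrial genes, at least 1 UMI of Hand2 and at least 1 of Foxf1, no Sox10 UMI, and not both Acta2 and Tagln at 3 UMIs or more. The rule found 700 cells among 19189 kept E9.5 cells and 58432 kept cells of the whole series. Of these, 231 of 8612 came from the control library and 469 of 10577 from the Tbx1 null library.

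Neural crest cells were sorted by EGFP and profiled by droplet single-cell RNA sequencing, in control embryos and in embryos called Tbx1 null (Tbx1 is a T-box transcription factor gene of the pharyngeal apparatus). The control genotype was Wnt1-Cre/+;ROSA-EGFPf/+ at E8.5 (1 library), E9.5 (1 library) and E10.5 (2 libraries), and the null groups at E9.5 (1 library) and E10.5 (2 libraries) carried the same Wnt1-Cre and reporter alleles. The strain field reads Swiss-Webster, and the study's methods describe a mixed background of that name. Each library pooled several embryos, and Wnt1-Cre marks the neural crest lineage. The sort still held cells with cardiomyocyte genes. Kept E9.5 cells without Sox10 UMIs that failed the gate's Acta2 and Tagln limit numbered 32 in control and 45 in null. This smooth muscle set was taken with or without UMIs of Hand2 and Foxf1. It had all 10 cardiomyocyte markers, at a summed 5234 CPM in control and 10533 CPM in null cells. At E9.5 the pharyngeal apparatus with the heart was dissected, whereas at E10.5 the first arch was left out. The sample titles call the null libraries Tbx1null, and the study's own summary of its libraries gives Tbx1-/- for them. Their genotype field reads Wnt1-Cre/+;Tbx1+/-;ROSA-EGFPf/+, and the title is followed here.

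Hand2 is a basic helix-loop-helix factor of the ventral, or distal, part of the pharyngeal arches and of the outflow tract, where it works downstream of endothelin and BMP signalling. Foxf1 is a forkhead factor of mesenchyme next to endoderm, and a known target of hedgehog signalling, in which the ligand binds the receptor Ptch1 and activates Gli factors. Neural crest mesenchyme of the arches gives rise to the facial skeleton and connective tissue, and, in the posterior arches, to smooth muscle of the great arteries and to the septum of the outflow tract.

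At E9.5 Tbx1 itself was nearly absent from the chosen cells. There were 0 UMIs in the 231 control cells, which allows a share of up to 1.30% of cells with a UMI. The 469 null cells had 2 UMIs in 2 cells. In E10.5 control cells that met the same limits, Tbx1 had 220 UMIs in 95 of 483 and 140 UMIs in 80 of 754 cells. In such null cells Tbx1 had 84 UMIs in 36 of 355 and 166 UMIs in 52 of 196 cells. Over all kept cells it had 81, 212, 873 and 791 UMIs in the control libraries of E8.5, E9.5 and E10.5 (2), and 153, 570 and 422 UMIs in the null libraries of E9.5 and E10.5 (2). Scaled to all UMIs of the kept cells, Tbx1 was lower in each null library than in any control library of its stage. It stood at 0.654 against 1.04 CPM at E9.5 and at 2.91 and 2.92 against 5.79 and 4.58 CPM at E10.5. This order is that of all kept cells and not of the chosen cells. Tbx1 was not at 0 in any null library, and the part of the gene that the null allele lacks is not given in the sources used here. Library totals ranged from 140264662 to 234844769 UMIs. The E9.5 libraries shared 27 barcodes, none of them among the chosen cells. With 1 library for each genotype at E9.5 there is no replicate, so no test was possible, intervals cover counting error only, and genotype cannot be told apart from the pool of embryos or from the 10x reagent version, which also differed between the 2 libraries.

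The sequences below show the start regions of a gate gene, of the transcript beside the other gate gene, and of Dlk1, a leading gene of these cells. Each window runs from 250 bases before to 50 bases after the RefSeq start on GRCm38.p6 and is written 5′ to 3′ on the gene's strand. Capitals mark the letters CATCTG (an E-box, searched with CAGATG) in Hand2, and GTAAACA or TGTTTAC (a forkhead motif on either strand) in the others. Hand2 lies at chr8:57320733-57321032 (plus strand), Fendrr at chr8:121083061-121083360 (minus strand) and Dlk1 at chr12:109452573-109452872 (plus strand).
Hand2: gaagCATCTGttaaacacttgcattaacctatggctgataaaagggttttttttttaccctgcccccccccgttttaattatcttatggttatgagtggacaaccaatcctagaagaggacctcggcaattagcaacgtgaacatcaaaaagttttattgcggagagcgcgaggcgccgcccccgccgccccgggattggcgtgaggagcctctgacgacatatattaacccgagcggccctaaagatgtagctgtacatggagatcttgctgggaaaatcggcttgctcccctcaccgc
Fendrr: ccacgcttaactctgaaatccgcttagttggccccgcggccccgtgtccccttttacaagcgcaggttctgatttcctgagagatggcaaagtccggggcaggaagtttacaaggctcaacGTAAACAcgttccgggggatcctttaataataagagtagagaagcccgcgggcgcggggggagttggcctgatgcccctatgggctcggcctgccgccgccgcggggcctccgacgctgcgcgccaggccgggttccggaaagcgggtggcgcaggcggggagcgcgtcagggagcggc
Dlk1: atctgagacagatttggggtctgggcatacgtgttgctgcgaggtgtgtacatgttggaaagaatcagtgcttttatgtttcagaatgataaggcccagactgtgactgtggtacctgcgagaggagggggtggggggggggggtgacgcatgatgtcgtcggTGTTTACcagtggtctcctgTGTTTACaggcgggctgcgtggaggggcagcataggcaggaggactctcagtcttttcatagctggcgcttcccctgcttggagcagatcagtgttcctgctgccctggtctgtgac

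The forkhead letters stood at 2 places in the Dlk1 window and 1 in the Fendrr window, and 3.65% of all 32851 windows of this length held them. Of the 15 genes highest in these cells (below), 13 had a start region in the table, with 20 windows in all, and Dlk1 had the single window of the 20 with this motif. A longer GLI motif, GACCACCCA or TGGGTGGTC, was in 0 of the 20 windows and in 0.253% of all windows. The E-box letters of the Hand2 window were in 17.2% of all windows. These matches are descriptions of letters, and no binding was measured.

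Dlk1 and Bambi, named beside the gate genes as markers of these cells, were found in most of them and in fewer cells of every other mesenchymal set without smooth muscle genes. Dlk1 was detected in 208 of 231 control cells (90.0%, 95% interval 85.4 to 93.6%) and 423 of 469 null cells (90.2%), and Bambi in 94.4% and 91.3%. In mesenchymal cells with Hand2 only, Dlk1 was detected in 68.1% of control and 71.0% of null cells and Bambi in 82.7% and 82.8%, and with Foxf1 only Dlk1 in 65.1% and 48.4% and Bambi in 58.1% and 69.9%. In mesenchymal cells with neither Hand2 nor Foxf1, Dlk1 was detected in 19.1% and 24.3% and Bambi in 41.6% and 51.3%. In the neural cells of the same libraries, which should lack Dlk1, it was detected in 4.97% and 7.16%. Cells were also thinned to 5000 UMIs, here with the sets kept as first chosen. Dlk1 was then detected in 58.4% and 62.7% of the chosen cells and in 7.57% and 8.56% of cells with neither gene. Twist1, a transcription factor gene of mesenchymal crest, was detected in 231 of 231 and 99.4% of the chosen cells.

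The share of these cells was larger in the null than in the control library. They made up 2.68% of kept control cells (95% exact binomial interval 2.35 to 3.05%) and 4.43% of kept null cells (4.05 to 4.84%), and the null share was 1.65 times the control share. Of the mesenchyme alone the shares were 5.86% (5.15 to 6.64%) and 7.91% (7.23 to 8.63%), 1.35 times higher in the null library. The neural cells of the 2 libraries moved in the opposite direction, from 20.1% to 13.5% of kept cells, and shares of one total are not independent. These cells were slightly shallower in the null library, with a median of 26866 UMIs in control and 24081 in null cells. With a gate at 2 UMIs of each gene the shares were 1.08% and 1.63%, and after thinning to 5000 UMIs they were 0.363% and 0.880%, so the size of the share moved with the gate and the depth.

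The gate met no cell at E8.5 (0 of 5874, which allows a share of up to 0.0511%). At E10.5 it met 483 of 7351 (6.57%) and 754 of 10259 (7.35%) control cells, and 355 of 8820 (4.02%) and 196 of 6939 (2.82%) null cells. Of all kept cells the null library was thus above the control library at E9.5, whereas both null libraries were below both control libraries at E10.5. Of the mesenchyme alone (chosen cells plus cells with Twist1 and Prrx1 or Prrx2) this order was not seen at E10.5, where the shares were 15.6% (14.3 to 16.9%) and 11.3% (10.5 to 12.1%) in controls and 13.9% (12.6 to 15.3%) and 13.6% (11.9 to 15.5%) in nulls, so that both null libraries lay between the controls. The gate did not ask for Twist1 and Prrx1 or Prrx2, which 89.0% and 80.2% of chosen control cells and 99.2% and 91.8% of chosen null cells carried at E10.5. With only these cells counted as chosen, an alternative added after seeing the data, the shares were 14.1% and 9.26% in controls and 13.8% and 12.7% in nulls, and the null libraries again lay between the controls. Neural cells made up 34.4% and 9.55% of kept control cells and 43.0% and 38.6% of kept null cells at that stage, and their part in the lower null share of all kept cells was not tested. The dissected tissue differed between these stages, and with 2 libraries a genotype an exact permutation test could not pass 0.05, so no test is given.

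**Figure D1:**
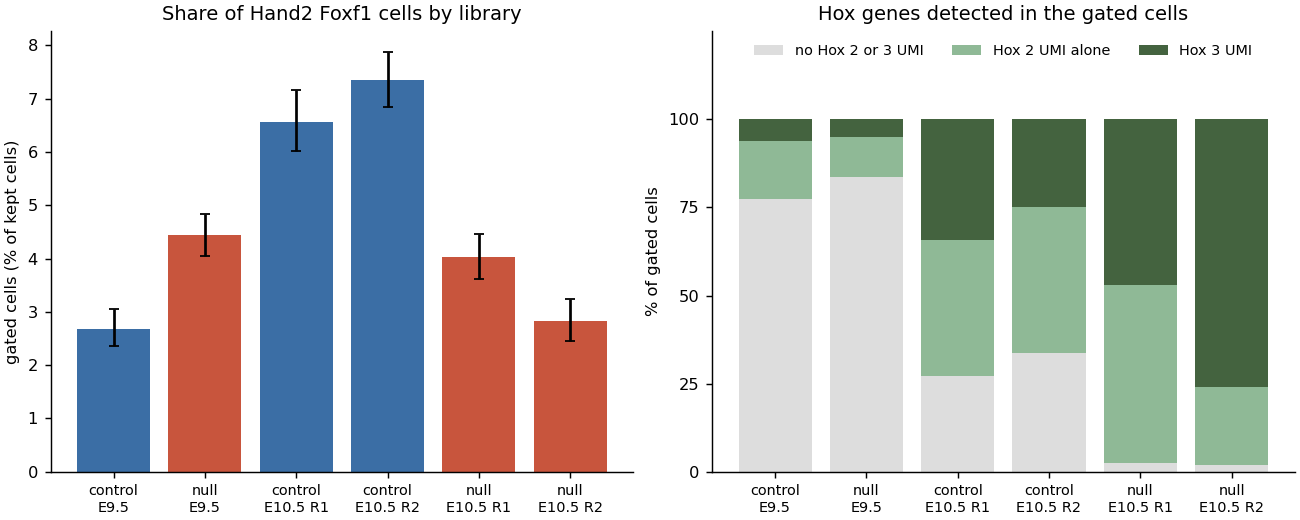
Left, percent of kept cells that met the gate in each library (bars, with 95% exact binomial intervals, control in blue and Tbx1 null in red). Right, percent of the gated cells in which no group 2 or 3 Hox UMI, a group 2 UMI alone, or a group 3 UMI was found. The null share was the higher one at E9.5 (4.43% against 2.68%) and both null shares of kept cells were the lower ones at E10.5, where the shares of mesenchyme (not plotted) did not show that order. Cells without Hox UMIs made up most gated cells at E9.5 alone.

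Most of the chosen cells sat close to the Foxf1 limit. Exactly 1 Foxf1 UMI was found in 135 of 231 control cells (58.4%) and 276 of 469 null cells (58.8%), with a median of 1 and a maximum of 6 and 7. Hand2 had a median of 4 UMIs in both libraries, and 17 control and 70 null cells had exactly 1. Before the remaining limits 253 control and 508 null cells had both genes, of which 13 and 33 were left out for Sox10 and 9 and 6 for Acta2 and Tagln. The cells left out for Sox10 had medians of 50234 and 39052 UMIs, well above the cells inside. Acta2, a smooth muscle actin gene, was detected in 15 of the chosen control cells (6.49%) and in 5 of the null cells (1.07%).

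Both gate genes have a transcript that starts beside them. Hand2 (ENSMUSG00000038193; chr8:57320983-57324633, plus strand) overlaps Hand2os1 on the minus strand over 3251 bases, and Foxf1 (ENSMUSG00000042812; chr8:121084386-121088144, plus strand) starts 1276 bases from Fendrr without overlap. Hand2os1 stood at 115 CPM (UMIs of a gene scaled to all UMIs of the summed cells) in the chosen cells of both libraries, against 12.7 CPM in other control and 17.2 CPM in other null mesenchyme. Since it is not stated whether counting used the strand, and the 2 genes share bases, the level of Hand2os1 cannot be told apart from that of Hand2. Fendrr, which shares no bases with Foxf1, stood at 2.50 CPM in control and 2.15 CPM in null chosen cells and at 0.109 and 0.178 CPM in other mesenchyme.

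Other mesenchyme means cells that met the same quality limits, carried Twist1 and Prrx1 or Prrx2, and were not chosen (3710 control and 5461 null cells). Among 2770 genes that reached 50 CPM in any of the 4 sums, 11 (0.397%) were at least 2-fold higher in the chosen cells in both libraries and 8 (0.289%) were at least 2-fold lower. These E9.5 contrasts separate cells by genes the gate used, so they are given as a description. The same gate was then applied to the 4 E10.5 libraries, which the rule did not use. There too the cells were split by Hand2 and Foxf1 UMIs, so the calls describe what goes with these genes and are no independent test. The chosen cells were compared with other mesenchyme of the same library by edgeR's quasi-likelihood test with the library as a block. There 1005 of 13539 genes (7.42%) were higher and 906 (6.69%) were lower at a Benjamini-Hochberg adjusted p under 0.05. In data simulated with 2-fold changes this test found 93.5% of them, and 8.78% of its calls were false, more than the 0.05 limit allows for. Without the first control library 592 were higher and 591 lower, and without the second 582 and 664. Chosen E10.5 cells did not need Twist1 and Prrx1 or Prrx2, which 89.0% and 80.2% of control and 99.2% and 91.8% of null cells carried. The part of this difference in the calls was not tested. Of 9 measured crest mesenchyme genes, with Twist1, Prrx1 and Prrx2 left out, 3 were called higher and 5 lower at E10.5. Leaving out Hand2os1, which overlaps a gate gene, 9 of the other 10 genes higher at E9.5 were also called higher at E10.5 and Dkk1 was not, and of the 8 lower genes 7 were called lower and Sfrp1 was called higher.

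Imprinted growth genes were among the highest in the chosen cells, after Hand2os1 and Pmp22, which encodes a myelin protein that is also made in mesenchyme. Pmp22 stood at 69.0 CPM in control and 29.3 CPM in null chosen cells against 9.15 and 5.26 CPM in other mesenchyme, and at E10.5 it was higher in 4 of 4 libraries (2.32 ± 0.06, adjusted p = 9.41e-08). Of 12 measured imprinted and growth genes 4 were 2-fold higher in both libraries at E9.5 and none was 2-fold lower. Over all genes measured these shares were 0.397% and 0.289%. Dlk1, a non-canonical Notch ligand of progenitor cells, stood at 221 CPM in control and 270 CPM in null chosen cells, against 48.2 and 58.5 CPM in other mesenchyme, 4.58-fold and 4.62-fold higher. H19, a non-coding RNA, stood at 248 and 218 CPM against 68.4 and 66.6 CPM. Igf2, the fetal growth factor of the same imprinted domain as H19, stood at 103 and 93.8 CPM against 25.6 and 25.4 CPM. Meg3, a non-coding RNA of the Dlk1 domain, was 2.97-fold and 2.73-fold higher. Each of these genes was higher in both libraries, and Dlk1 and Meg3 are neighbours, as are Igf2 and H19, so these are 2 loci rather than 4. Plagl1, a zinc finger gene of the same group, was low but followed the same pattern, with 9.22 and 11.6 CPM against 2.04 and 3.01 CPM.

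At E10.5, 11 of 19 measured imprinted and growth genes were called higher and 2 lower, beside 7.42% and 6.69% of all genes tested. The list median was 0.309 beside 0.00 for all genes tested. Dlk1 stood at 402 and 332 CPM in chosen control cells and 456 and 227 CPM in chosen null cells, against 185, 157, 208 and 107 CPM in other mesenchyme of the same libraries (log2 difference 1.10 ± 0.04 SE, adjusted p = 2.26e-07). H19 (1.17 ± 0.06, adjusted p = 3.40e-06) and Igf2 (1.17 ± 0.05, adjusted p = 1.19e-06) were higher in 4 of 4 libraries. Plagl1 rose the most in this group, by 2.63 ± 0.06 (adjusted p = 4.77e-08). Igfbp5, which encodes an IGF-binding protein, was one of the lower ones (-0.97 ± 0.16, adjusted p = 0.00354).

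Hedgehog pathway genes went both ways. At E9.5, 1 of 3 measured genes, Ptch1, was at least 2-fold higher in both libraries and none was 2-fold lower. The shares for all genes measured were 0.397% and 0.289%. Of 11 hedgehog genes in the E10.5 test, 4 were called higher and 3 lower (median -0.0755), beside 7.42% and 6.69% of all genes tested. Ptch1, the receptor gene and a target of the pathway, stood at 84.0 CPM in control and 82.9 CPM in null chosen cells against 24.5 and 25.9 CPM in other mesenchyme, 3.43-fold and 3.20-fold higher. Gli1, the transcriptional effector, was below the 50 CPM limit, at 6.87 and 6.92 CPM against 1.32 and 2.02 CPM. Gas1, a co-receptor gene, stood at 41.1 and 38.8 CPM against 79.5 and 76.3 CPM. At E10.5 Ptch1 was higher in 4 of 4 libraries (2.11 ± 0.07, adjusted p = 2.26e-07), as were Gli1 (1.63 ± 0.13, adjusted p = 4.73e-05) and Hhip, which encodes a hedgehog-binding inhibitor (2.26 ± 0.15, adjusted p = 1.79e-05). At E10.5 Gas1 (-1.98 ± 0.05, adjusted p = 4.77e-08) and Cdon, another co-receptor gene (-0.73 ± 0.10, adjusted p = 0.00105) were lower.

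Of 7 measured BMP targets 2 were at least 2-fold higher in both libraries at E9.5, Bambi and Dkk1. Of 2 measured distal arch genes none was, and over all genes measured the share was 0.397%. Bambi, a decoy receptor gene of the BMP pathway, stood at 210 and 198 CPM against 54.8 and 72.0 CPM in other mesenchyme. Dkk1, which encodes a secreted WNT inhibitor, stood at 76.7 and 54.5 CPM against 16.1 and 13.3 CPM. Msx2, a homeobox target of BMP signalling that did not reach 2-fold in both libraries, stood at 159 and 152 CPM against 55.8 and 89.4 CPM. Dlx5, a homeobox gene of the distal arch, was 1.67-fold and 1.61-fold higher. Barx1, a homeobox gene of arch mesenchyme, stood at 238 and 261 CPM against 213 and 225 CPM.

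At E10.5 Bambi was still higher in 4 of 4 libraries (0.83 ± 0.11, adjusted p = 0.000926). Dkk1 was not called (-0.14 ± 0.16, adjusted p = 0.626), with 22.1, 25.3, 36.8 and 9.84 CPM against 29.2, 24.8, 29.1 and 19.6 CPM. Msx2 was lower in 4 of 4 libraries (-0.78 ± 0.09, adjusted p = 0.000370), and so was Msx1, its close relative (-1.74 ± 0.07, adjusted p = 7.01e-07). Of 11 BMP targets measured there, 5 were called higher and 2 lower, beside 7.42% and 6.69% of all genes tested.

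Transcription factor genes known from the heart and outflow tract were mostly low in absolute level. Of 20 in the list, 18 were above 0 on the log2 scale in both libraries, without a limit on level. The other 2 in the list, Mef2c and Foxc1, were below 0 in both. Of the 4 that reached 50 CPM, 3 were above 0 in both libraries, beside 747 of the 2770 genes that reached it. None of the 4 that reached the 50 CPM limit was 2-fold higher or lower in both libraries, and Mef2c, a MADS-box factor gene, stood at 25.3 and 21.3 CPM against 61.3 and 41.9 CPM. Hand1, the paralogue of Hand2, stood at 37.8 CPM in control and 23.5 CPM in null chosen cells, against 2.43 and 1.44 CPM in other mesenchyme. Isl1, a LIM homeobox gene of cardiac progenitors, stood at 11.9 and 11.5 CPM against 1.68 and 1.61 CPM. Foxf2, the paralogue of Foxf1, stood at 11.2 and 9.23 CPM against 0.893 and 1.29 CPM, Gata3 at 16.7 and 19.3 CPM against 2.63 and 4.28 CPM, and Foxd1 at 37.8 and 34.9 CPM against 6.63 and 6.26 CPM. Hand1, Isl1, Foxf2, Gata3 and Foxd1 fell below the 50 CPM limit and were not among the 2770 genes counted.

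At E10.5 Hand1, Isl1, Foxf2, Gata3 and Foxd1 were called higher and Mef2c was not called (0.05 ± 0.16, adjusted p = 0.906). Foxc1, below 0 in both E9.5 libraries, was called higher (1.26 ± 0.15, adjusted p = 0.000500). Hand1 stood at 81.8, 78.6, 62.7 and 117 CPM against 13.6, 20.05, 7.74 and 11.8 CPM in other mesenchyme (2.67 ± 0.18, adjusted p = 1.68e-05). Isl1 (2.63 ± 0.16, adjusted p = 7.54e-06), Foxf2 (2.77 ± 0.07, adjusted p = 8.24e-08) and Gata6 (2.24 ± 0.10, adjusted p = 1.89e-06) were higher in 4 of 4 libraries. Gata3 (1.73 ± 0.15, adjusted p = 8.21e-05) and Foxd1 (0.34 ± 0.07, adjusted p = 0.00919) differed by less. Fendrr was 3.88 ± 0.13 higher (adjusted p = 2.26e-07). Of the 20 cardiac transcription factor genes, all measured there, 15 were called higher and 2 lower, with a median of 1.25. Among all genes tested 7.42% were called higher and 6.69% lower. The 5 genes called highest were Syne3, Enpp1, Colec10, Otogl and Nkx2-5, of which Nkx2-5, a homeobox gene of cardiac progenitors, stood at 5.15, 5.25, 2.81 and 20.7 CPM against at most 1.16 CPM in other mesenchyme.

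**Figure D2:**
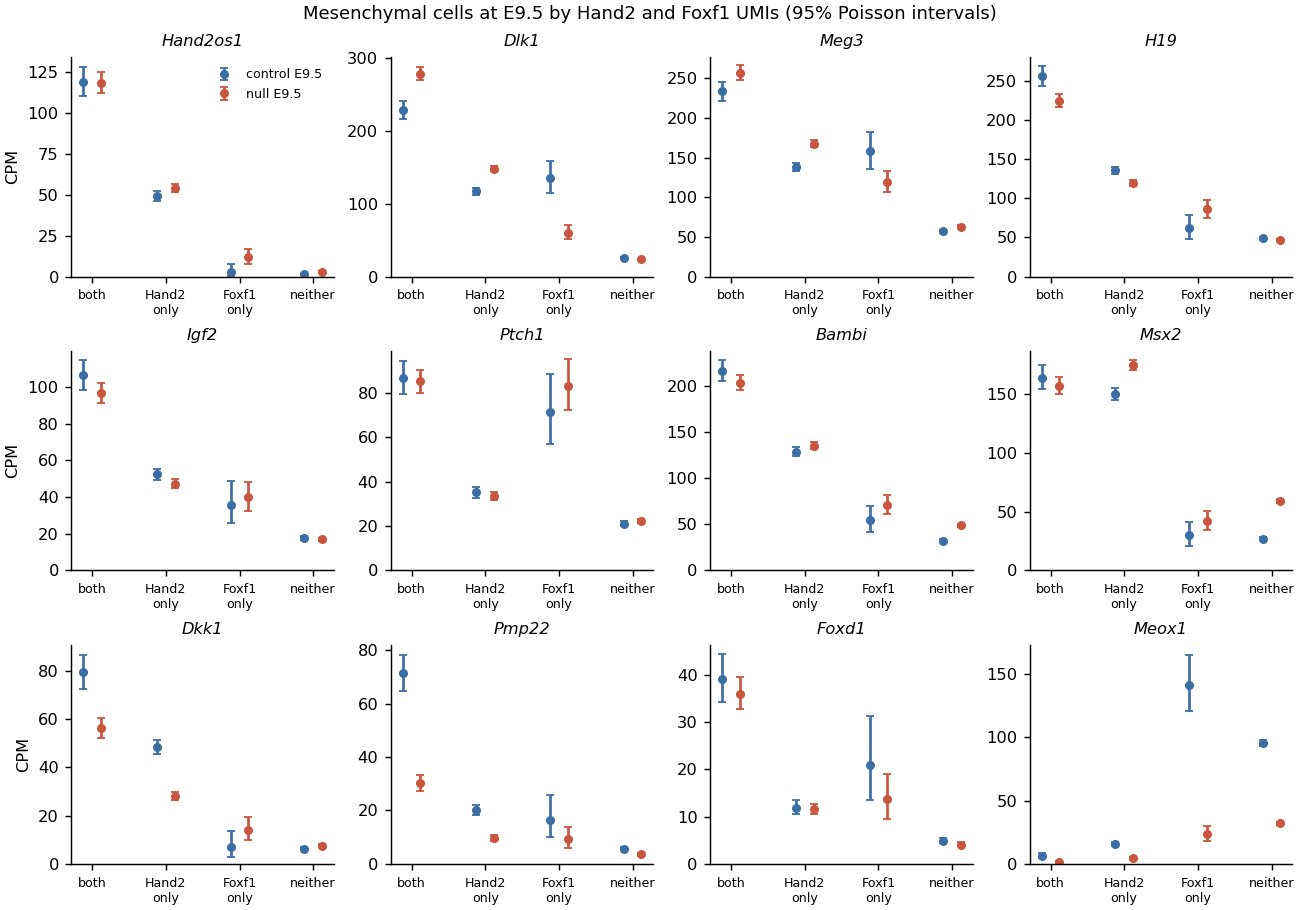
CPM of 12 genes at E9.5 (vertical axes, separate scale for each gene, each from 0) in mesenchymal cells with UMIs of both Hand2 and Foxf1, of Hand2 only, of Foxf1 only, or of neither, in the control (blue) and Tbx1 null (red) library. CPM here uses TMM factors fitted over all E9.5 cell sets together, and bars are 95% Poisson intervals. Dlk1, H19, Igf2, Bambi and Dkk1 were highest in cells with both genes, next in cells with Hand2 only, and lowest in cells with neither, except that Foxf1-only control cells had more Dlk1 than Hand2-only cells.

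The cells with one of the 2 gate genes ordered these genes further. With TMM factors fitted over all cell sets of the stage, Bambi stood at 217, 129, 54.1 and 32.2 CPM in control cells. These values are for both genes, Hand2 only, Foxf1 only and neither. Ptch1 was closer to the chosen cells in Foxf1-only cells than in Hand2-only cells, as the plot of levels by cell set shows. Msx2 was nearly as high in Hand2-only cells (150 CPM) as in chosen control cells (164 CPM). Only 43 control and 93 null cells made up the Foxf1-only set. Against Hand2-only cells in place of all other mesenchyme, 4 genes were 2-fold higher in both libraries and 1 was lower.

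Fewer genes were low in the chosen cells. Meox1, a homeobox gene known from somites, stood at 6.09 CPM in control and 1.67 CPM in null chosen cells against 74.0 and 23.3 CPM in other mesenchyme. Ebf1, a transcription factor gene, stood at 6.87 and 14.6 CPM against 43.1 and 50.4 CPM. Crabp1, which encodes a cellular retinoic acid binding protein, stood at 672 and 538 CPM against 1482 and 1120 CPM. Sfrp1, a WNT antagonist gene, stood at 24.1 and 20.8 CPM against 64.0 and 43.8 CPM. Hopx, Fabp7, Inka1 and Col23a1 completed the 8 genes.

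At E10.5 Crabp1 (-1.10 ± 0.05, adjusted p = 1.59e-06), Ebf1 (-0.88 ± 0.13, adjusted p = 0.00171) and Meox1 (-0.64 ± 0.17, adjusted p = 0.0370) were lower, and Sfrp1 was higher (0.55 ± 0.09, adjusted p = 0.00257). Over all genes tested there, as given above, 7.42% were called higher and 6.69% lower. Of 13 measured WNT genes 8 were called lower and 2 higher, and of 11 retinoic acid genes 6 were lower and 3 higher. Cyp26a1, which encodes a retinoic acid-degrading enzyme, was among the 5 lowest, with Jaml, Tbx15, S100a4 and Sost. Of 17 arch position genes 10 were lower and 2 higher, and of 12 Hox genes 7 were lower and none higher. Of 23 matrix genes 11 were higher and 3 lower, of 13 smooth muscle genes 8 were higher and none lower, and of 9 proliferation genes none was called. With lists this short, 2 of 13, 3 of 23 or 0 of 9 are not far from the shares over all genes.

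**Figure D3:**
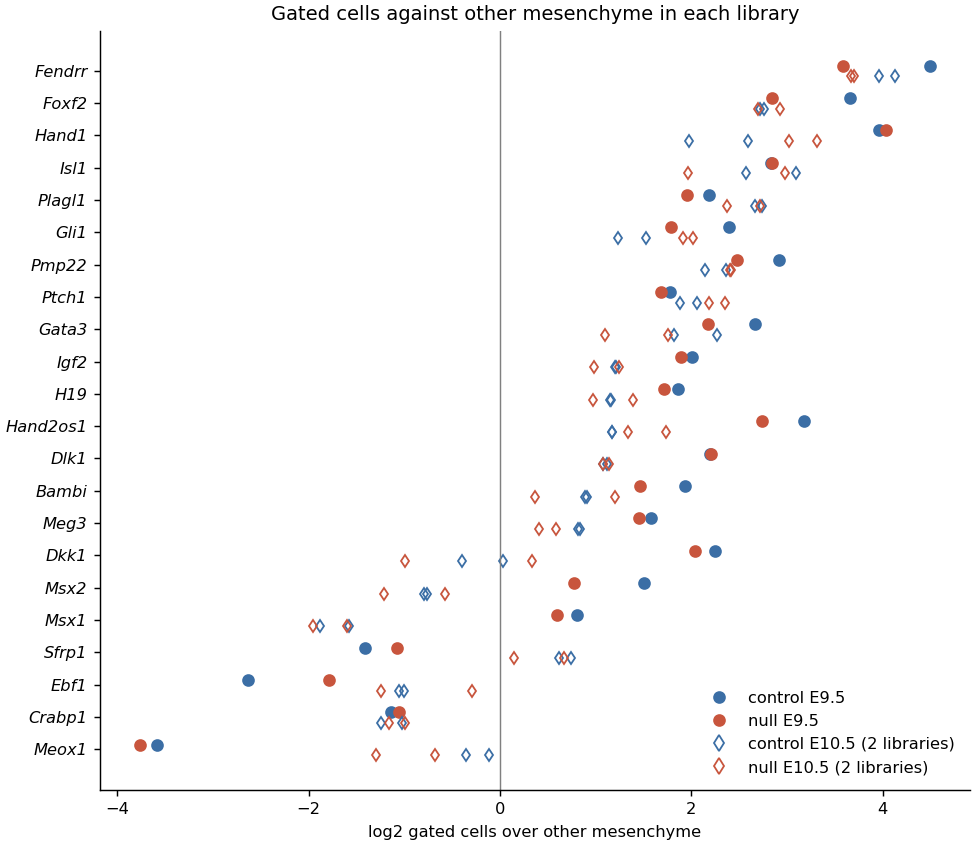
Log2 ratio of CPM in gated cells over other mesenchyme in each E9.5 library (filled circles) and each E10.5 library (open diamonds), control in blue and Tbx1 null in red. Ptch1, Pmp22, Igf2, H19 and Dlk1 lie right of 0 in all 6 libraries and Crabp1, Ebf1 and Meox1 left of 0 in all 6, whereas Msx1, Msx2 and Sfrp1 lie on opposite sides at the 2 stages.

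Most chosen cells at E9.5 had no UMI of group 2 or 3 Hox genes, which mark the second arch and the posterior arches, whereas the first arch lacks Hox expression. No such UMI was found in 179 of 231 control cells (77.5%, 95% interval 71.6 to 82.7%) and 392 of 469 null cells (83.6%, 79.9 to 86.8%). Group 2 alone was found in 16.5% and 11.5%, and group 3 in 6.06% and 4.90%. In Hand2-only cells the share without Hox UMIs was lower, at 65.2% in control and 73.5% in null cells. At E10.5, without the first arch, it was 27.1% and 33.8% in controls and 2.54% and 2.04% in nulls, and group 3 UMIs were found in 34.2% and 24.8% of control and 47.0% and 76.0% of null chosen cells. Hand2-only E10.5 cells showed the same order. Without Hox UMIs were 18.3% and 31.4% of control and 4.74% and 5.49% of null cells, and with group 3 UMIs 37.3% and 25.2% against 58.6% and 72.9%. A cell without a Hox UMI may still express a Hox gene below detection. Chosen E10.5 cells without Hox UMIs had medians of 16021 and 11811 UMIs in controls and 23399 and 19354 in nulls. Those with group 3 UMIs had 28443 and 22074 against 30473 and 25896.

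A small share of the chosen cells carried Hand1, and these cells had another profile. Hand1 was found in 33 of 231 control cells (14.3%, 95% interval 10.0 to 19.5%) and 70 of 469 null cells (14.9%, 11.8 to 18.5%). This split was chosen after the values were seen, and it is a description. Median UMIs were 25598 in control and 23937.5 in null cells with Hand1, against 27132.5 and 24081 in those without. Barx1 was found in 9.09% of control and 17.1% of null cells with Hand1 and in 71.2% and 71.4% of those without. The same difference was seen at E10.5, where Barx1 was found in 13%, 9.12%, 18.4% and 9.85% of cells with Hand1 and in 65.3%, 51.5%, 69.3% and 26.6% of cells without.

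Between genotypes at E9.5 the summed profiles of the chosen cells were close at a 2-fold limit. More genes passed a 1.5-fold limit, or 2-fold after thinning, as given below. Of 2697 genes that reached 50 CPM in either library, 6 (0.222%) were at least 2-fold higher in null cells and 18 (0.667%) at least 2-fold lower, and the median log2 ratio over all of them was -0.03. All 24 genes moved in the same direction in other mesenchyme of the same libraries, and 18 of them passed 2-fold there. The 6 higher genes were Xist, Rpl29, AY036118, Gm42418, Tpm3-rs7 and mt-Co3, and the lower genes held 4 histone and 3 ribosomal protein genes. The median share of mitochondrial UMIs moved with mt-Co3, from 1.96% in control to 3.22% in null chosen cells and from 1.90% to 2.60% in other mesenchyme, and its part in these differences was not tested. Xist, the RNA of the inactive X chromosome, had 0 UMIs in control and 3511 in null chosen cells, at least 594-fold higher against a floor of 3 UMIs. Y-linked genes were found in both libraries, so the pools differed in the sex of the embryos.

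Several of the genes that mark these cells were near the same level in both genotypes. Pmp22, at 69.7 CPM in control and 29.5 CPM in null cells, was one of the 18 lower genes (log2 ratio -1.24). After thinning to 5000 UMIs a cell, its ratio was -0.58 and no longer past 2-fold. The gate was then applied anew, which left 31 control and 90 null cells. Dkk1 and Hand1, described below, were also lower. In the same paired scaling, Dlk1 stood at 223 CPM in control and 272 CPM in null cells (log2 ratio 0.29, 95% interval 0.20 to 0.38), Ptch1 at 84.9 and 83.4 CPM (-0.03, -0.18 to 0.13) and Bambi at 212 and 199 CPM (-0.09, -0.19 to 0.01). Foxd1 stood at 38.2 and 35.1 CPM and Igf2 at 104 and 94.4 CPM. The 12 measured imprinted and growth genes had a median log2 ratio of 0.10, none past 2-fold. Cdkn1c, a cell cycle inhibitor gene, stood at 242 CPM in control and 313 CPM in null cells (0.37, 0.29 to 0.46), and its ratio in other mesenchyme was larger (0.65, 0.62 to 0.68).

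Of the 11 BMP targets in the list, 10 were above 0 in the null over the control library in other mesenchyme (median 0.54). There 1 had its interval below 0, whereas in the chosen cells 5 were above 0. These counts have no limit on level. Of all 2697 genes that reached 50 CPM, 1142 were above 0 in chosen cells and 1042 in other mesenchyme. Of the 7 BMP targets among them, 3 were above 0 in chosen cells and 6 in other mesenchyme. Id1, which encodes an inhibitor of basic helix-loop-helix factors, stood at 907 CPM in control and 968 CPM in null chosen cells, against 638 and 948 CPM in mesenchyme with neither gate gene. Msx2 stood at 160 and 153 CPM in chosen cells and at 26.1 and 57.1 CPM in cells with neither. The log2 ratio of null over control was -0.06 (95% interval -0.17 to 0.05) for Msx2 in chosen cells and 1.13 (1.05 to 1.21) in cells with neither, and for Id3 -0.01 (-0.06 to 0.03) and 0.65 (0.63 to 0.67).

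Over all 11 BMP targets of the list, without a limit on level, 5 were above 0 in chosen cells (median -0.01), 9 in Hand2-only cells (median 0.16) and 11 in cells with neither (median 0.68). In chosen cells the interval lay above 0 for 4 of them, Id1, Id2, Msx1 and Smad7, and below 0 for Dkk1. These intervals cover counting error only. Of the 7 BMP targets that reached 50 CPM, 3 were above 0 in chosen cells, near the share over all genes at that limit, 1142 of 2697. The chosen cells had the higher control level of these genes, and in null cells with neither gene Id1 (948 against 968 CPM) stood near its level in chosen cells, whereas Msx2 (57.1 against 153 CPM) did not. The difference between cell sets has no replicate at this stage and was not tested.

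**Figure D4:**
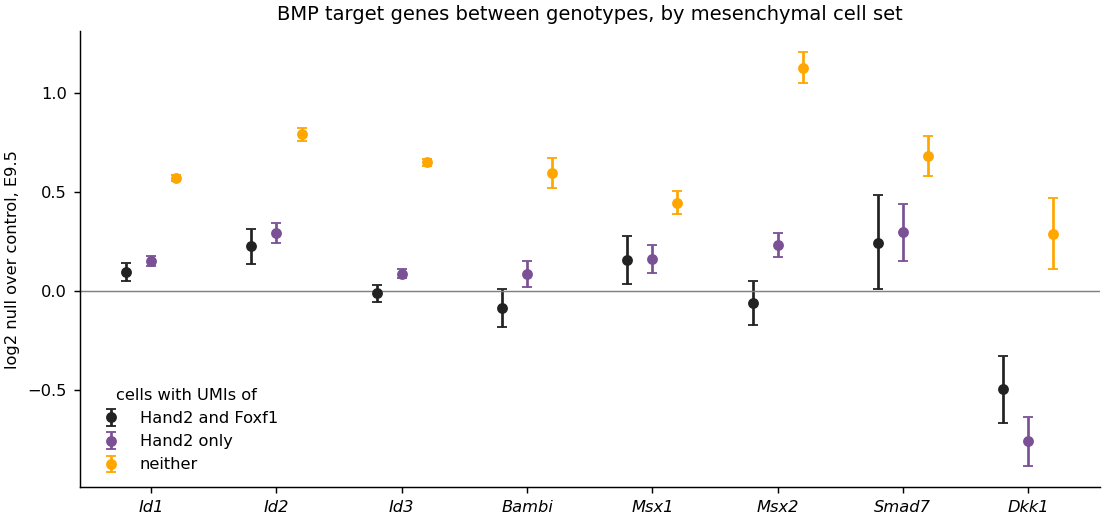
Log2 ratio of CPM in the Tbx1 null over the control library at E9.5 for 8 BMP target genes (points, with 95% intervals for counting error), in mesenchyme with UMIs of Hand2 and Foxf1 (black), of Hand2 only (purple) or of neither (orange). Msx2 was at -0.06 in cells with both and 1.13 in cells with neither, and Dkk1 was below 0 in both sets with Hand2.

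Several genes of the lists were lower in null than in control chosen cells, some of them by more in cells with Hand1. Dkk1 stood at 77.4 CPM in control and 54.8 CPM in null chosen cells (log2 ratio -0.50, 95% interval -0.67 to -0.33), and Hand1 at 38.2 and 23.7 CPM (-0.69, -0.94 to -0.44). Krt8 stood at 17.8 and 3.76 CPM and Krt18 at 20.3 and 10.2 CPM. Krt8 and Krt18 encode the keratin pair of simple epithelium, and both are in the list of epithelial markers used here. That list summed to 662 CPM in control and 622 CPM in null cells of the E9.5 smooth muscle set. These 32 control and 45 null cells were taken with or without UMIs of Hand2 and Foxf1. Krt8 was the most abundant gene of the list there. Sparc, a matrix glycoprotein gene, stood at 64.4 and 42.2 CPM, and Myl9, a myosin light chain gene of smooth muscle, at 27 and 12 CPM.

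Split by Hand1, Krt8 stood at 110 CPM in control and 13.1 CPM in null cells with Hand1 (log2 ratio -3.05, 95% interval -3.78 to -2.42) and at 3.28 and 2.16 CPM in cells without. A single control cell held 43 of the 95 Krt8 UMIs (45.3%), and Krt8 was found in 42.4% of control (25.5 to 60.8%) and 24.3% of null (14.8 to 36.0%) cells with Hand1. Sparc stood at 201 and 84.2 CPM with Hand1 and 42.8 and 35.0 CPM without, and Dkk1 at 269 and 145 CPM with and 47.4 and 39.4 CPM without. Gadd45g stood at 77.9 and 17.5 CPM with Hand1, but 1 control cell held 50 of its 67 UMIs (74.6%). Acta2 was found in 27.3% of control and 2.86% of null cells with Hand1, and in 3.03% and 0.752% of those without. Tagln was found in 45.5% and 24.3% with Hand1 and in 12.1% and 10.3% without. The part of cells with Acta2 or Tagln in these values was not tested.

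Pmp22 was lower in both sets, at 190 and 63.4 CPM with Hand1 and 50.8 and 23.7 CPM without, and at 9.07 and 5.22 CPM in other mesenchyme. Bambi was level in both, at 394 and 371 CPM with Hand1 and 183 and 170 CPM without. Barx1 moved the other way in the cells with Hand1, from 3.49 to 33.3 CPM, on 3 and 61 UMIs, of which 1 null cell held 32 (52.5%). These rest on 33 control cells of 1 library.

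**Figure D5:**
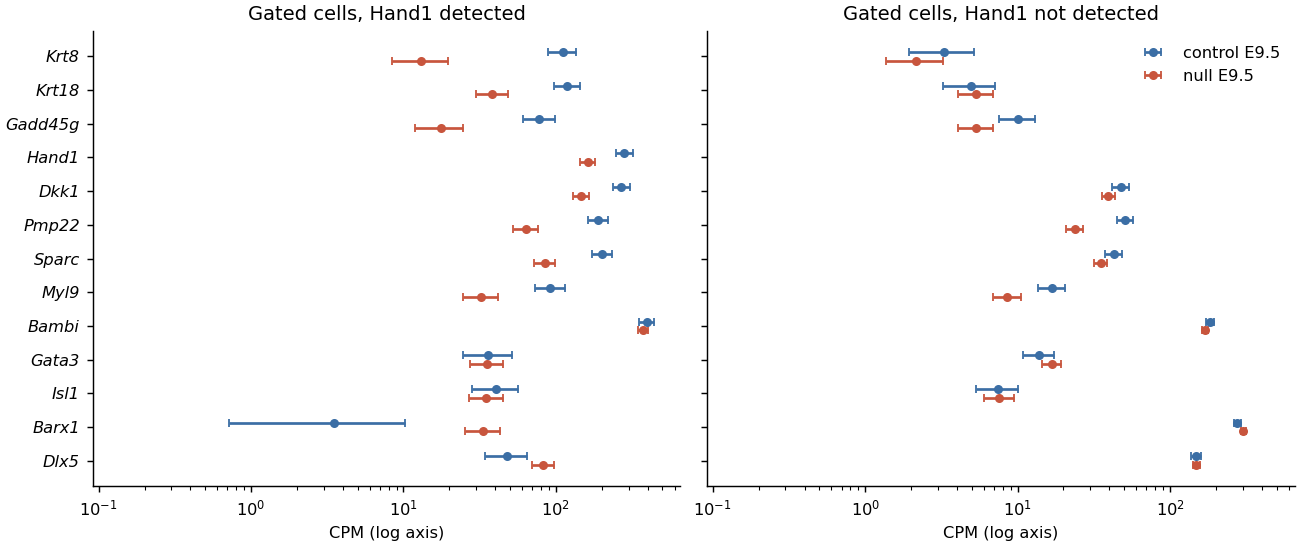
CPM (log axis, 95% intervals for counting error) of 13 genes in gated E9.5 cells with a Hand1 UMI (left, 33 control and 70 null cells) and without one (right, 198 and 399 cells), control in blue and Tbx1 null in red. Hand1 itself has no value in the right panel. Krt8, Krt18, Dkk1 and Sparc were higher with Hand1 and lower in null than control cells there, whereas the intervals of Bambi overlapped.

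At E10.5 no gene of 12568 was called between genotypes in the chosen cells by edgeR's quasi-likelihood test (0 higher and 0 lower, 0%), while 1111 had an unadjusted p under 0.05 and DESeq2 called 15 higher and 20 lower. Msx1 stood at 42.9 and 29.6 CPM in controls and 81.4 and 48.8 CPM in nulls (log2 ratio 0.85 ± 0.31 SE, adjusted p = 0.541), with no overlap between the groups. Msx2 stood at 17.1 and 14.3 CPM against 59.2 and 13.6 CPM (adjusted p = 0.561), a difference that 1 null library carried. Foxd1 stood at 51.9 and 39.8 CPM against 17.0 and 22.2 CPM (-1.23 ± 0.26, adjusted p = 0.453), and Igf2 at 319 and 387 CPM against 175 and 188 CPM (-0.96 ± 0.23, adjusted p = 0.461). Markers of other cells moved with the libraries. The neural list summed to 112 and 51.8 CPM in control and 101 and 445 CPM in null chosen cells, with 7 of 7 genes above 0 (median log2 ratio 1.42) and none called. The heart field mesoderm list, which includes Tbx1, stood at 29.0 and 20.6 CPM against 16.1 and 70.5 CPM, and the epithelial list at 50.4 and 41.3 CPM against 27.4 and 86.7 CPM. The second null library was thus the highest for each of these 3 lists, and it alone had 0 UMIs of the 4 Y-linked genes. Their part in the genotype values was not tested. Groups did not overlap for 41.7% of all genes tested. The first null library was made with another reagent version than the other 3, and without it 545 genes were called higher and 163 lower, the lone null library being assumed to vary like the controls. Without the second null library the counts were 404 and 646, without the first control 20 and 46, and without the second control 2 and 6.

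Of the genes that were lower in null cells at E9.5, Hand1, Krt8 and Dkk1 had no shared direction at E10.5. Hand1 stood at 81.5 and 78.5 CPM in controls and 63.3 and 117 CPM in nulls, Krt8 at 14.5 and 9.60 CPM against 7.84 and 31.2 CPM, and Dkk1 at 22.1 and 25.3 CPM against 37.1 and 9.87 CPM. For each of these genes the 2 null libraries lay on either side of the controls. Foxd1 and Igf2, near the same level in both genotypes at E9.5, were below both controls in both null libraries at E10.5, as given above. Neither was called, and groups did not overlap for 41.7% of all genes tested. In data simulated at these levels the test found 5% of 2-fold and 98% of 8-fold changes, so a 2-fold change was rarely detectable with 2 libraries a group. Of the genes called in these simulations, 16.7% (2-fold) and 3.45% (8-fold) were false.

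At E9.5, markers of most other cell types were low in the chosen cells. Summed over its list, blood stood at 0.154 CPM in control and 1.06 CPM in null cells, endothelium at 2.47 and 1.55 CPM with Cdh5 at 0 in both, and cardiomyocytes at 3.70 and 2.70 CPM. The epithelial list stood at 39.1 and 15.9 CPM, mostly Krt18 and Krt8, with Cdh1 at 0 in both libraries and Epcam in 3.46% and 4.05% of cells. Heart field mesoderm (3.86 and 2.62 CPM), macrophage (1.08 and 0.900 CPM) and skeletal muscle (0 and 0.573 CPM) lists were as low. Neural genes summed to 23.0 and 26.1 CPM, genes of glia and migrating crest to 30.9 and 44.1 CPM, and dissociation genes to 83.0 and 87.8 CPM. Their part in the differences above was not tested. A doublet score removed 12 control and 38 null cells, and without them the null share was 1.64 times the control share.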

How the data were processed

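Cells sorted by EGFP were processed by the authors with 10x Genomics kits and Cell Ranger 6.0.1 on mm10, per the labels and the submitters' processing notes. The deposited values are UMI counts per gene and cell for barcodes called as cells, with no normalization. Cells were kept from 1000 detected genes upward if mitochondrial UMIs did not exceed 10%, and the gate was applied without clustering. Doublet scores were computed and doublets removed only in an alternative. Counts were summed over cells of a set in each library. At E9.5, CPM used TMM factors, with exact Poisson intervals, a pseudocount of 0.5 UMIs in ratios, and 2-fold as the limit. At E10.5, sums were tested with edgeR 4.0.16 (filterByExpr, glmQLFit, glmQLFTest), with DESeq2 1.42.0 as an alternative, in R 4.3.3. CPM within one comparison share a scaling, so a level can differ slightly between comparisons. Nothing states that the E10.5 libraries of a group came from separate litters, so p-values measure the spread between these libraries. Named genes were those of fixed lists, the 10 largest changes each way between genotypes, the 15 highest and 10 lowest against other mesenchyme, and 5 each way per E10.5 test. Genes of the Hand1 split were chosen after their values were seen. The cell set and the lists were chosen with earlier results of these data known. Gene positions are from GRCm38, where 32158 of 32285 identifiers matched. Python 3.11.15, scipy 1.17.1 and scanpy 1.11.5 were also used, and the tests were tested on simulated data.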

Additional observations from a re-analysis of the deposited data

Results flagged for a closer look

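Msx1, Msx2, Col2a1 and Sfrp1 differed from other mesenchyme in opposite directions at the 2 stages. At E9.5 the smaller of the log2 differences of the 2 libraries was 0.60 for Msx1, 0.77 for Msx2, -0.53 for Col2a1 (a cartilage collagen gene) and -1.07 for Sfrp1, and both libraries moved the same way. At E10.5 the fitted log2 differences were -1.74 for Msx1, -0.78 for Msx2, 0.63 for Col2a1 and 0.55 for Sfrp1, in the same direction in 4 of 4 libraries. The difference between the stages was not tested. The first arch was dissected at E9.5 alone, and its part in these values cannot be told apart from the stage.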

How the results depend on the processing

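The E9.5 shares moved to 1.08% and 1.63% (control, null) with a gate at 2 UMIs and to 0.363% and 0.880% after thinning to 5000 UMIs, and the null share was the higher one under every alternative run. Between genotypes at E9.5, a minimum of 20 CPM gave 30 lower genes, and a 1.5-fold limit gave 12 higher and 98 lower. Thinning gave 122 and 138, with the gate applied anew to the thinned counts, on 31 control and 90 null cells. Against other mesenchyme at E9.5, a gate at 2 UMIs gave 17 higher genes, thinning 22, and, chosen after seeing the data, comparison with Hand2-only cells 4 higher and 1 lower. Between genotypes at E10.5, the counts higher and lower were 15 and 20 with DESeq2, 163 and 132 without a filter on low counts, and 2 and 5 with a gate at 2 UMIs, with 3 lower after thinning. Leaving out 1 library gave 2 to 545 higher and 6 to 646 lower genes. With the replicate number as a block the counts were 150 and 146. The 2 pairs share only a number (correlation of deviations 0.11), so the block is not read as pairing. Against other mesenchyme at E10.5, 111 and 49 genes were called without the library block and 392 and 309 after thinning, and leaving out 1 library gave 582 to 985 higher and 591 to 935 lower. The causes were not tested. Of the named genes, 328 of 343 values against other mesenchyme at E10.5 kept their call and direction and 15 lost the call. At E9.5, 97 of 114 values against other mesenchyme and 137 of 144 between genotypes stayed past 2-fold in the same direction. Between genotypes 122 of the 144 lay inside the counting interval of the reported value, but after thinning only 3 of 16. Among these recomputed E9.5 and E10.5 values of named genes none changed sign. Against other mesenchyme at E9.5 a value was set to 0 where the 2 libraries disagreed in sign. A change of sign in 1 library could therefore not show there. Named genes were not recomputed between genotypes at E10.5. In that comparison higher calls outnumbered lower ones without the first null library and not without the second. The median log2 ratio of null over control at E9.5 was -0.03 with TMM and 0.03 with total UMIs. Gated cells without Hox or without Acta2 UMIs, also chosen after seeing the data, gave 6 and 19 and 5 and 18 genes higher and lower between genotypes.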

Other observations

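Further lists were measured in the chosen cells without entering the account above. At E10.5, against other mesenchyme, 5 of 14 BMP ligand, receptor and antagonist genes were called higher and 2 lower, among them Bmp5, a BMP ligand gene (log2 difference 1.20 ± 0.13 SE, edgeR adjusted p = 0.000278). Over all genes tested there 7.42% were called higher and 6.69% lower. Of 15 FGF and MAPK genes 1 was higher, near the share over all genes, and 5 lower, of 20 guidance genes 4 were higher and 5 lower, and of 12 PDGF and TGF-beta genes 5 were higher and 1 lower. Slit3, a guidance ligand gene, was higher in 4 of 4 libraries (1.11 ± 0.07, adjusted p = 1.16e-05).

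Between genotypes at E9.5, Lhx8, a LIM homeobox gene of the first arch, stood at 10.7 CPM in control and 23.8 CPM in null chosen cells (log2 ratio 1.14, 95% interval 0.76 to 1.55) and at 11 and 25.2 CPM in other mesenchyme. Tbx2, a T-box repressor gene, stood at 21.5 and 32.8 CPM in chosen cells (0.61, 0.33 to 0.90) and at 16.4 and 27.7 CPM in other mesenchyme. Twist2 stood at 19.7 and 31.1 CPM (0.66, 0.37 to 0.96) and at 12.8 and 18 CPM. The 3 genes were thus higher in the null library in both cell sets. In Hand2-only cells Krt8 (6.58 and 2.64 CPM) and Hand1 (8.95 and 3.87 CPM) were lower in the null library too, whereas Krt8 stood at 4.67 and 6.13 CPM in cells with neither gate gene.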
